A study of Homo sapiens with 20 samples.

Results

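The transcripts that still lost signal after transcription was blocked, in cells first given a blocker of translation, are described here. The cells are U2OS, a human cell line established from an osteosarcoma. The 4 arrays of cells given emetine (100 ug/ml for 3 hr) and then DRB (100 ug/ml) for 4 times (no DRB exposure, then 1.5, 3 or 4.5 hr) were taken by their treatment label, out of 20 arrays in all. The other 16 arrays follow the same 4 times in control cells, in cells held below 0.1% oxygen (hypoxia), in cells given tunicamycin (2.5 ug/ml), and in cells depleted of UPF1, which the labels call shRent1. Hypoxia and the 2 drugs lasted 3 hr before DRB. Each condition and time has 1 array, and the labels say neither that the arrays came from separate cultures nor whether emetine stayed on the cells during DRB. For the depleted cells no control hairpin is named.

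Emetine stops ribosomes during elongation and leaves them on the mRNA. Many unstable mRNAs are degraded in step with their translation, and nonsense-mediated decay needs a translating ribosome, so blocking elongation is known to stabilize them. DRB inhibits the kinase that lets RNA polymerase II elongate, and the fall of a transcript after DRB is a common measure of its decay. RNAs that stay in the nucleus, such as intronic transcripts, precursors of microRNAs and retained-intron RNAs, are not translated at all, and their processing and decay use nuclear enzymes.

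Signal was read on 3' expression arrays with 54675 probe sets, of which 1 stood for each of 14478 genes tested. Of these genes, 8986 had a log2 signal of 7 or more in emetine at 0 hr, and losses are given for these. The signals are normalized between arrays, so every change is relative to the typical transcript of the array: an RNA that kept pace with the bulk shows no change, and fewer cells cannot be told apart from less RNA per cell. Pearson correlations among the 4 emetine arrays were 0.9765 to 0.9964 over probe sets. The 3' probe set of ACTB exceeded its 5' probe set by log2 1.79 to 2.23 on the emetine arrays, against 0.436 to 0.647 in control and 1.94 to 2.23 in hypoxia. The same difference for GAPDH was 0.091 to 0.145 in emetine. The part of this ACTB imbalance in the results below was not tested. Of 17 osteoblast and mesenchymal markers tested, 9 reached log2 7 in emetine at 0 hr, and of 18 markers of other cell types 2 did.

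Few transcripts were lost in emetine. A line through the 4 times, fitted with limma to all 20 arrays, gave a negative slope with an adjusted p under 0.05 for 33 of the 8986 genes (0.367%), which are called lost here. The same test called 25.3% of these genes falling in control, 20.2% in hypoxia, 16.2% in tunicamycin and 23.4% in UPF1-depleted cells. Without regard to signal, 47 of the 14478 genes fell in emetine (0.325%) and 10 rose (0.0691%). At an unadjusted p under 0.05, 393 of the 8986 genes had a negative slope. The measured change between the 0 and 4.5 hr arrays, which has no test, gave the same order: 94 genes stood at 50% or less of their 0 hr signal in emetine (1.05%), against 1114 in control (12.4%), 835 in hypoxia (9.29%), 721 in tunicamycin (8.02%) and 1071 in UPF1-depleted cells (11.9%). These 94 are called the reduced genes below, and the word is used in the same way, over the same 8986 genes, for the other conditions. The count rests on 1 probe set per gene: 336 genes had at least 1 named set at log2 7 or more that was reduced in emetine, and 1440 in control. The middle of the distribution barely differed, with a median change of log2 0.10 in emetine and -0.002 in control, while the lowest 1% of genes began at -1.02 in emetine and at -3.06 in control.

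**Figure D1:**
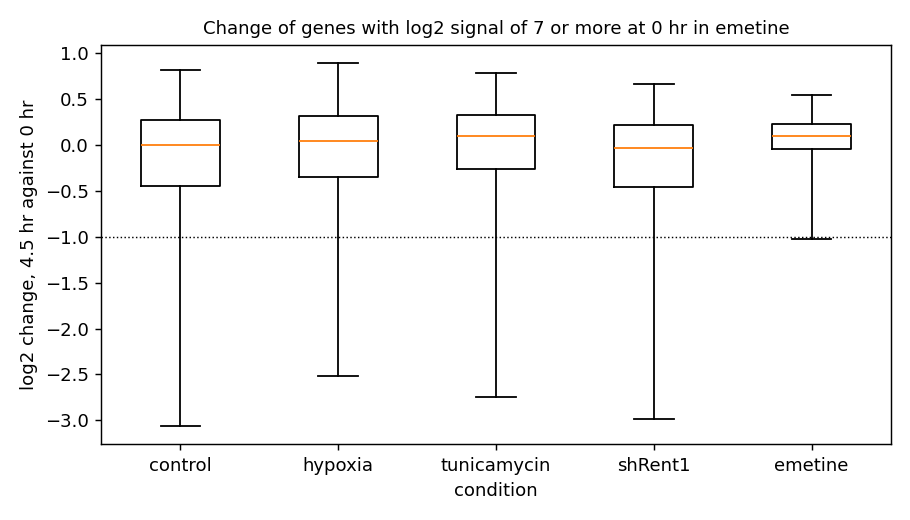
Log2 change from 0 to 4.5 hr in DRB (vertical axis) for the 8986 genes with log2 signal of 7 or more in emetine at 0 hr, by condition; the box is the middle 50% of genes, the line is the median and the whiskers leave out 1% of genes on each side. The lower whisker reaches -1.02 in emetine and -3.06 in control, and the dotted line marks a loss of 50%.

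The 33 lost transcripts went down steadily, a shape that their choice by a straight line through the same arrays favours. All 33 were lower at each successive time, and their median change was log2 -0.42 at 1.5 hr, -0.96 at 3 hr and -1.34 at 4.5 hr. Of the 33, 26 were also among the 94 reduced genes. The fitted slopes ran from -0.94 log2 per hr for NPTN-IT1 to -0.13 for LINC01138, which kept 66.1% of its 0 hr signal. Because each condition and time has a single array, the calls rest on single arrays at both ends of the course: without the 0 hr emetine array, or without the 4.5 hr one, 2 genes remained called, against 24 without 1.5 hr and 18 without 3 hr. PSMD6-AS2 and MAT2A were the ones called in both cases.

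**Figure D2:**
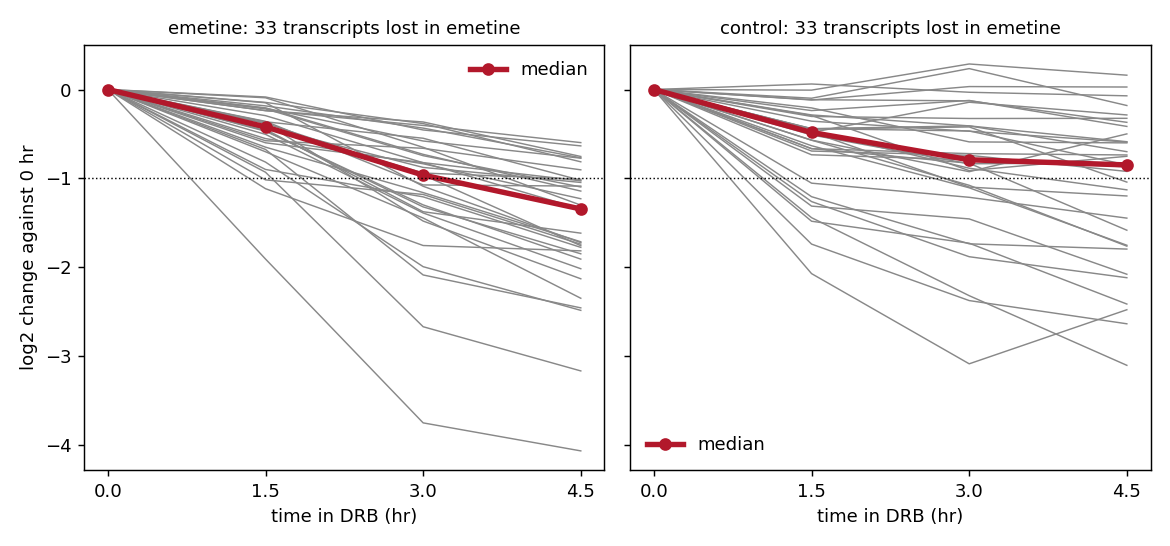
Log2 change against 0 hr (vertical axis) over hours in DRB (horizontal axis) for the 33 lost transcripts, in emetine on the left and for the same transcripts in control on the right; grey lines are genes and the red line their median. The emetine median reaches -1.34 at 4.5 hr, the control median -0.85.

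Noncoding RNAs made up a large share of what was lost. By RefSeq gene type, 8 of the 33 lost transcripts (24.2%) and 18 of the 94 reduced genes (19.1%) were noncoding, against 2.03% of all genes at log2 7 or more and 2.78% of the genes at 50% or less in control. Read by type, 9.89% of 182 noncoding genes and 9.64% of 83 pseudogenes stood at 50% or less in emetine, beside 17.0% and 10.8% of the same genes in control. Of 8717 protein-coding genes, 0.769% did so in emetine and 12.3% in control.

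**Figure D3:**
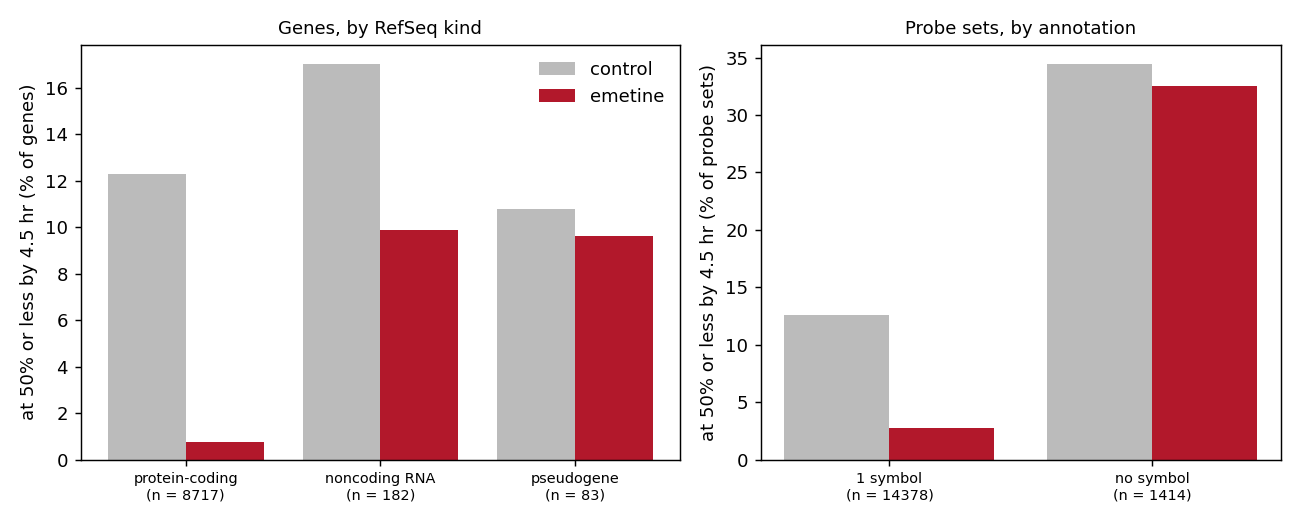
Percent of genes (left, by RefSeq type) and of probe sets (right, by whether the annotation gives a gene symbol) that stood at 50% or less of their 0 hr signal after 4.5 hr of DRB, in control (grey) and emetine (red), with 1 array per condition and time and so no error bars. Protein-coding genes go from 12.3% in control to 0.769% in emetine, and probe sets without a symbol from 34.4% to 32.5%.

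NPTN-IT1, an RNA transcribed from within an intron of the NPTN gene, had the steepest slope of the 33. Its log2 signal in emetine was 9.12, 7.21, 5.37 and 5.05, in order of time from 0 to 4.5 hr as in all series of 4 values below. It thus kept 5.99% of its 0 hr signal (slope -0.94 ± 0.18 log2 per hr, SE; limma adjusted p = 0.0484). In control the same RNA read 7.55, 5.48, 4.46 and 5.07, and its slope fell in all 4 other conditions, by 0.56 to 0.80 log2 per hr. NPTN itself, which codes for the membrane protein neuroplastin, read 12.20, 12.31, 12.32 and 12.29 in emetine.

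A second intronic RNA, ASAP1-IT1, read 8.60, 7.51, 5.95 and 5.62 in emetine. Its slope did not pass the test (-0.70 ± 0.17; adjusted p = 0.13). Of 14 transcripts with an intronic-transcript symbol that were tested, 3 reached log2 7 and 2 of these, NPTN-IT1 and ASAP1-IT1, were reduced genes, as both were in control. The third, ALMS1-IT1, read 7.63 at 0 hr and 7.82 at 4.5 hr. These symbol groups were chosen after values were seen.

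The genes that contain such RNAs did not follow them. In the RefSeq gene table, 13 lost or reduced genes lie inside the bounds of a protein-coding gene, on either strand, and 9 of those containing genes were tested, all above log2 7. None of the 9 stood at 50% or less in emetine, with changes at 4.5 hr from log2 -0.59 to 0.23 and a median of 0.09. HYMAI, a noncoding RNA from the imprinted PLAGL1 locus, read 8.03, 4.48, 3.81 and 3.95, while PLAGL1 read 10.67, 10.62, 10.47 and 10.62. EBLN2, a gene derived from an ancient viral insertion, read 7.24, 4.87, 4.66 and 4.48, while its containing gene PPP4R2 read 10.81, 10.93, 11.003 and 11.04. LOC114224 went from 8.11 to 4.66, LOC145474 from 7.41 to 5.19 and the deubiquitinase gene YOD1 from 9.79 to 7.58, with containing genes UBAP1, SIPA1L1 and PFKFB2 at 0.05, 0.20 and 0.22 log2 above their own 0 hr values.

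The reduced genes include 3 precursors or hosts of microRNAs, and the mature microRNAs they encode are shown to identify them. A microRNA finds its targets mainly through its seed, bases 2 to 8, in capitals here. The sequences and positions are from RefSeq on GRCh38.p14, written 5′ to 3′. MIRLET7D gives let-7d (chr9:94178841-94178862, plus strand), MIR181A2HG hosts miR-181a (chr9:124692480-124692502, plus strand) and miR-181b (chr9:124693725-124693747, plus strand), which share the seed ACAUUCA, and MIR4307HG hosts miR-4307 (chr14:26908697-26908715, plus strand).
hsa-let-7d-5p: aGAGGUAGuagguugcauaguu
hsa-miR-181a-5p: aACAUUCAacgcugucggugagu
hsa-miR-181b-5p: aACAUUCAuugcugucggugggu
hsa-miR-4307: aAUGUUUUuuccuguuucc

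The probe sets are assigned to these precursor or host genes by annotation, and which RNA they read was not analysed here. No level of a mature microRNA is given. MIRLET7D read 7.24, 4.99, 4.95 and 4.82 in emetine, and 7.20, 4.80, 4.80 and 4.93 in control, so that both courses dropped in the first interval. By 1.5 hr, 93.0% of the emetine loss had taken place. MIR181A2HG read 7.47, 5.54, 4.75 and 4.44 in emetine, with 7.91 at 0 hr and a change of -3.31 in control. MIR4307HG declined later, with 7.26, 6.88, 6.30 and 5.51, and was called lost (slope -0.39 ± 0.07; limma adjusted p = 0.0394). Of 10 microRNA genes or hosts at log2 7 or more, these 3 were reduced in emetine and 3 in control. The other 7 changed by log2 -0.08 to 0.30, among them MIR4435-2HG, at 8.14 and 8.16.

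The probe set annotated to SNORA21, a small nucleolar RNA cut from an intron of RPL23, also dropped in the first interval. Whether this set reads the mature RNA or a longer precursor was not analysed here. The set read 7.15, 4.57, 4.48 and 4.39 in emetine, and its change at 4.5 hr was -2.77 there and -2.58 in control. Another small nucleolar RNA, SNORA78, read 7.25, 6.56, 6.68 and 6.84.

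SNORA21, MIRLET7D and HYMAI belong to 11 of the 94 reduced genes that had 70% or more of their 4.5 hr loss by 1.5 hr. The other 8 were ARF1, EBLN2, EIF3C, FRG1BP, LINC00537, MAP3K8, NFKBID and PCF11. None was called lost, since a line leaves a large scatter where a fall ends early. A contrast of 0 hr with the mean of the 3 later times, added after the data were seen, called 23 genes in emetine, of which 2 are among the 33. It holds all 11, as their choice by early loss on the same arrays favours, and is no independent support for them. EIF3C, named for a subunit of initiation factor eIF3, was read by a probe set at 7.69, 4.57, 3.97 and 3.80, and in control at 7.90, with a change of -4.05. At the other extreme, 19 of the 94 had 25% or less of their loss by 1.5 hr, such as the long noncoding RNA LOC100190986 (9.91, 9.76, 8.82 and 8.19).

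Antisense and other long noncoding RNAs were among the lowest adjusted p-values. PSMD6-AS2, antisense to the proteasome gene PSMD6, read 7.99, 7.32, 5.91 and 5.54 in emetine and kept 18.2% of its signal (slope -0.59 ± 0.05; limma adjusted p = 3.69e-05). In control it read 6.79, 6.58, 6.20 and 6.19. Emetine thus started above control and ended below it, and its slope was lower than in each other condition, by 0.44 log2 per hr against control (adjusted p = 0.000409) and by 0.34 to 0.42 against the others. That the signal is that of PSMD6-AS2 rests on the annotation of its probe set.

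LINC00470 read 10.57, 10.07, 9.18 and 8.56 in emetine (slope -0.46 ± 0.05; limma adjusted p = 0.00133). In control it read 8.996, 8.56, 8.59 and 8.30. Its other 3 probe sets went the other way, with changes of 0.47, 0.44 and 0.17 in emetine from dimmer starts. With the median of its probe sets or without sets of shared probes its slope was 0.08 or 0.07, so the direction depends on the probe set. PCBP1-AS1 read 7.77, 7.32, 6.40 and 6.16 (slope -0.39 ± 0.05; limma adjusted p = 0.00209). Its other sets, all below log2 7 at 0 hr, changed by -0.465 to 0.20 in emetine. LOC729732 read 8.64, 7.94, 7.20 and 6.30, and LOC100190986 reached 30.3% of its 0 hr signal. Of 130 RNAs at log2 7 or more that carry a long noncoding or antisense symbol, 6 were lost and 7 reduced, and 18 were reduced in control.

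TUG1, a long RNA that is largely kept in the nucleus and that RefSeq lists as coding, fell modestly. Its signal was 10.49, 10.34, 10.10 and 9.67 (slope -0.18 ± 0.03; limma adjusted p = 0.0198). Its other 2 probe sets above log2 7 changed by -0.56 and -0.78 at 4.5 hr. In the list of nuclear-retained and snoRNA host RNAs, 12 of 18 measured members reached log2 7: TUG1 was lost and FTX, a noncoding RNA of the X-inactivation centre, was reduced, from 8.49 to 7.23. In control 4 of the 12 were reduced, FTX from 9.52 to 6.79.

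Coding genes are given next one by one. MAT2A, which makes S-adenosylmethionine, the cell's methyl donor, is known for a nuclear retained-intron form that is spliced on demand. Its brighter probe set read 9.70, 9.05, 8.54 and 7.99 in emetine (slope -0.38 ± 0.03; limma adjusted p = 3.54e-05) and kept 30.5% of its signal. In control it read 11.49, 10.92, 10.42 and 9.73, so that emetine started lower (emetine minus control -1.79) and the slopes differed by 0.01 ± 0.04 (adjusted p = 0.917). Its other probe set behaved differently, with 7.80, 8.08, 7.91 and 8.16 in emetine.

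OGA, the enzyme that removes O-GlcNAc from proteins and another known carrier of a regulated retained intron, also differed by probe set. The set that stood for the gene read 10.75, 10.15, 9.93 and 9.72 (slope -0.22 ± 0.04; adjusted p = 0.0288). The set brightest at 0 hr in emetine read 11.72, 11.23, 10.02 and 8.69, a change of -3.03, and another read 10.65, 10.54, 10.40 and 10.33. Within OGA, then, changes from -0.32 to -3.03 were read on the same RNA samples.

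PABPN1, the nuclear poly(A)-binding protein, read 8.59, 8.37, 7.84 and 7.49 in emetine and kept 46.8% of its signal (slope -0.25 ± 0.05; limma adjusted p = 0.0288). In control it read 7.35, 7.25, 7.58 and 7.17. The slopes differed by -0.24 ± 0.06 (adjusted p = 0.0174), and the slope was also lower than in hypoxia and UPF1-depleted cells (adjusted p = 0.00199 and 0.0293), with tunicamycin at -0.13 below (adjusted p = 0.294). PCF11, a factor of transcript cleavage and termination, read 9.30, 7.96, 7.86 and 8.01. Its other probe set above log2 7 changed by -0.53 in emetine and by -1.97 in control.

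TAF1D, a subunit of the RNA polymerase I factor SL1, had the largest measured fall in emetine. It read 9.39, 6.19, 5.41 and 4.69, and kept 3.84% of its signal, with a control change of -4.76 against -4.70 in emetine. It was not called lost (slope -0.99 ± 0.38; adjusted p = 0.333), since its curve bends in most conditions and the scatter is pooled over all of them. SETD1B, a histone H3 lysine 4 methyltransferase, fell from 10.42 through 10.13 and 9.60 to 9.08 (adjusted p = 0.00209). INTS6L, related to a subunit of the Integrator complex, and ZFC3H1, which links nuclear RNA to the exosome, went down by 0.77 and 0.63 at 4.5 hr and both passed the test (adjusted p = 0.0278 and 0.0394). GTF2H3, a subunit of the repair and initiation factor TFIIH, fell from 9.72 to 7.94 on the probe set used, while its other set read 7.73 at 0 hr and 8.21 at 4.5 hr.

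**Figure D4:**
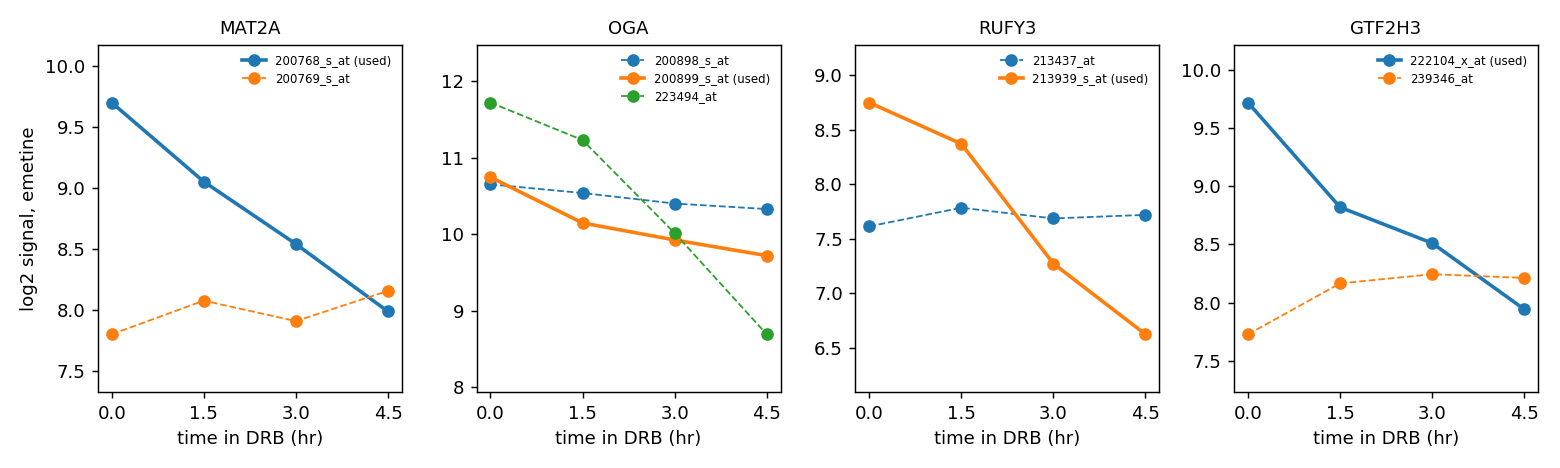
Log2 signal in emetine (vertical axis) over hours in DRB (horizontal axis) for each probe set at log2 7 or more at 0 hr of MAT2A, OGA, RUFY3 and GTF2H3; the solid line is the set that stood for the gene. In each of the 4 genes at least 1 probe set changed by less than 0.5 log2 while the change of the one used was between -1.03 and -2.13.

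RUFY3, a gene of neuronal polarity and lysosome transport, showed the same split. Its used set read 8.75, 8.37, 7.27 and 6.62, and another read 7.61, 7.79, 7.69 and 7.72. With the median of the probe sets its slope was 0.00, and without sets of shared probes 0.02. Over all 94 reduced genes, 31 had another probe set at log2 7 or more: in 9 of them another set was also reduced, and in 18 all other sets stayed above a change of -0.5. BSDC1 was one where sets agreed, at -1.05 and -1.06. Where the probe sets lie in the transcripts was not analysed here.

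Among coding regulators, NOTCH2NLA, a human-specific copy of part of the NOTCH2 receptor gene, was the brightest of the strong losers. It read 11.44, 10.51, 8.77 and 8.28, and kept 11.15% of its signal (slope -0.75 ± 0.12; limma adjusted p = 0.0142). It fell in all 4 other conditions as well, with control at 10.73, 8.99, 8.36 and 8.10 and no difference of slope past the test (adjusted p = 0.325). Signal of its near-identical relatives cannot be told apart from it with certainty on an array. ANKHD1, an ankyrin-repeat protein of Hippo signalling, fell from 7.65 to 5.16 (adjusted p = 0.0496).

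Other coding regulators were lost as well. ZBTB5, a zinc-finger repressor, read 10.83, 10.37, 9.51 and 8.98 (slope -0.43 ± 0.07; adjusted p = 0.0142), with a start 2.01 log2 above control. ZBED6, a repressor of the growth factor gene IGF2 that lies within ZC3H11A, read 8.16, 7.69, 6.87 and 6.26 (adjusted p = 0.0288). In control ZBED6 read 6.15, 5.58, 5.22 and 5.65, and the slope was lower in emetine than in each of the 4 conditions (adjusted p = 0.00296 to 0.0205). KLHL24, a ubiquitin ligase adaptor, SOCS4, an inhibitor of cytokine signalling, and FJX1, a secreted regulator of cell polarity, kept the downward course on the sets used, with changes of -1.74, -1.09 and -1.30. The other 2 KLHL24 sets at log2 7 or more changed by -0.26 and -0.52. At 0 hr in control these 2 sets read 3.96 and 3.28, against 9.84 on the set used. Without sets of shared probes the KLHL24 slope in emetine was -0.06 (limma adjusted p = 0.656). Yet a KLHL24 set outside the shared classes and just under the signal limit read 6.94, 5.74, 5.18 and 4.97 in emetine, a change of -1.98. In control that set read 2.96 at 0 hr. The direction was thus down on these sets, but the size of the change depended on the set.

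Another 4 reduced genes, none of them called lost, were chosen after their values were seen and are given as single genes. NFKBIZ, an inducible IkB-like regulator, read 11.11, 10.42, 9.77 and 9.38, and its other probe set changed by -1.47. NFKB2, which codes for an NF-kB subunit, read 9.49, 8.29, 8.38 and 7.63, while its other set at log2 7 or more changed by -0.30 in emetine and -0.35 in control. NFKBID, an IkB-like protein, read 8.28, 6.80, 6.35 and 6.69. For MAP3K8, a kinase of ERK and NF-kB signalling, the sets differed in how emetine compared with control. The set used read 7.97, 5.27, 5.03 and 4.54, with a slope below control by 0.42 ± 0.11 (limma adjusted p = 0.0185), whereas a set brighter at 0 hr in emetine (8.70) changed by -1.37 in emetine and -1.29 in control. In control the brighter set went from 4.73 to 3.45, around the filter of log2 4.70. The set used read 6.42 in control at 0 hr and 4.90 by 1.5 hr. Low control signal thus limits both comparisons for MAP3K8. On the sets used all 4 started higher in emetine than in control, by 1.50 to 1.97 log2.

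Transcripts known for rapid turnover lost less signal in emetine than in control. The list of immediate early and AU-rich mRNAs had 55 measured members, of which limma called 0 lost (3 at an unadjusted p under 0.05). Of its 50 members at log2 7 or more 1, NFKBIZ, was reduced in emetine, against 36 in control. In control 28 of the 55 fell, beside 2529 of all 14478 genes tested. The median change of the 55 at 4.5 hr was log2 -0.23 in emetine and -1.61 in control, beside 0.12 and 0.11 over all genes tested. By the test of the difference, 22 of the 55 had a higher slope in emetine than in control and 0 a lower one. Over all 14478 genes these counts were 1858 and 229. The list still lay low within emetine, as 75% of the 8986 genes changed by more than -0.05 there. At 0 hr 34 of the 55 started 2-fold or more above control, beside 954 of all 14478 genes. FOS, an immediate early transcription factor, read 12.45, 12.14, 11.92 and 12.03 in emetine, and JUN 13.08, 13.00, 12.97 and 12.86. JUN in control read 10.55, 7.24, 6.70 and 6.89. Since a higher start precedes DRB, the level at 0 hr and the change share that array.

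Other lists are counted here over their members at log2 7 or more, beside the 1.05% of all such genes that were reduced in emetine and the 12.4% in control. Of 36 transcription factors of short-lived families 1 was reduced, SMAD7, the inhibitor of TGF-beta signalling, against 16 in control. Of 35 cell cycle regulators 1 was reduced, CDKN1B, which codes for the cyclin-dependent kinase inhibitor p27, against 12. CDKN1B read 10.98, 10.69, 10.36 and 9.96 in emetine, and 9.01, 6.41, 5.62 and 5.78 in control. Of 44 mitotic genes, 25 transcripts known or proposed as nonsense-mediated decay targets and 47 splicing factors, 0 were reduced in emetine, against 11, 10 and 7 in control. Of 223 zinc-finger genes of the ZNF family, 4 were reduced, against 110. Among these 4, ZNF160, ZNF611 and ZNF721 were read by sets of shared probes, and ZNF92 was not. With shares this small, 0 or 1 reduced member in emetine is near what all genes gave. Cytosolic ribosomal protein and proteasome genes had 0 in both. In each of these lists 0 were called lost by limma, with 0 to 22 members at an unadjusted p under 0.05. Among 138 ubiquitin ligase genes KLHL24 was lost and 3 were reduced, against 42 in control. The 3, FBXW12, KLHL24 and TRIM38, were each read by a set of shared probes. The other TRIM38 sets at log2 7 or more changed by 0.048, -0.405 and 0.224 in emetine. TAF1D was the 1 reduced of 46 genes listed as Mediator or TFIID subunits, and EIF3C the 1 of 44 translation factors, against 11 and 3 in control. Stress response, heat shock, tubulin, sterol, p53, ribosome biogenesis, mitochondrial, matrix, and mRNA decay lists had 0 lost and 0 reduced members in emetine. Lists of related genes were described with earlier results of these data known and are not tested as sets.

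The contrast with control was tested gene by gene as a difference of slopes. Among the 8986 genes, 18.7% had a higher slope in emetine than in control and 1.36% a lower one. Over all 14478 genes these were 1858 and 229, and after quantile normalization 1650 and 518. Of the 33 lost transcripts, 11 had a lower slope than in control and 0 a higher one. Against hypoxia the counts were 17 and 0, against tunicamycin 6 and 3, and against UPF1-depleted cells 11 and 1. These differences share the emetine arrays that chose the 33, so a lower slope is favoured among them.

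Most of what was lost in emetine also fell elsewhere. By the slope test, 22 of the 33 fell in control, 19 in hypoxia, 24 in tunicamycin and 20 in UPF1-depleted cells. The shares of all genes given above were 25.3%, 20.2%, 16.2% and 23.4%. In hypoxia 2 of the 33 rose, RGL2 and ZFC3H1, and in the other 3 conditions 0 did. The shares of all genes are no fair yardstick, since each gene's scatter is pooled over all 20 arrays. A call in emetine favours genes of small pooled scatter, and so favours calls in the other conditions too. Without a test, the median change of the 33 at 4.5 hr was log2 -0.848 in control and -0.785 in hypoxia. It was -1.185 in tunicamycin and -0.801 in UPF1-depleted cells. For all genes at log2 7 or more these medians were -0.002, 0.044, 0.093 and -0.033. Of the 94 reduced genes, 60 (63.8%) were reduced in control, 56 in hypoxia, 76 (80.9%) in tunicamycin and 48 in UPF1-depleted cells, with 38 reduced in all 5 conditions. In the opposite direction, 5.39% of the 1114 genes reduced in control were so in emetine, and their median emetine change was log2 -0.06 against -1.61 in control.

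**Figure D5:**
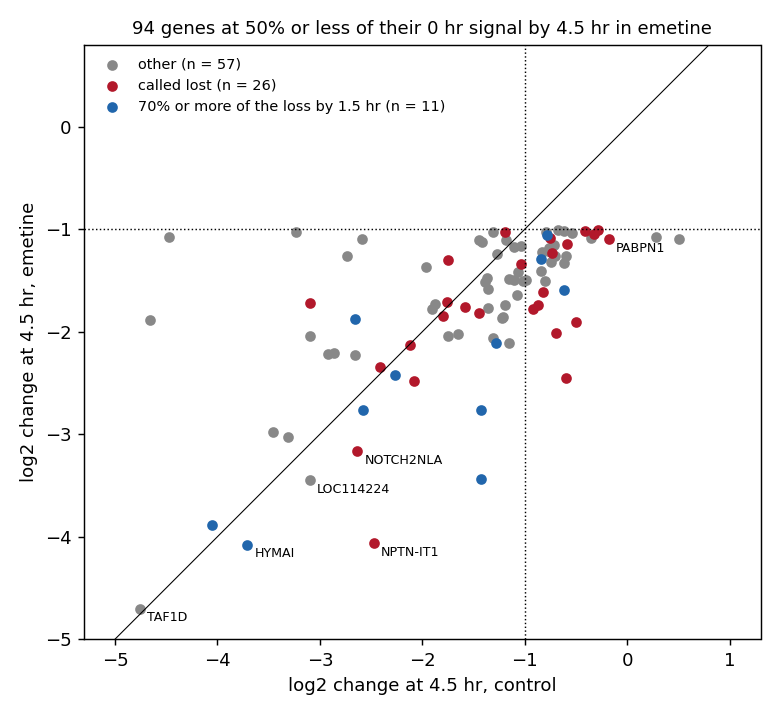
Log2 change at 4.5 hr in control (horizontal axis) and emetine (vertical axis) for the 94 reduced genes; red points are the 26 called lost, blue points the 11 with 70% or more of the loss by 1.5 hr, and the diagonal marks equal change. TAF1D lies on the diagonal at -4.76 and -4.70, and PABPN1 at -0.18 and -1.10.

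Some genes were reduced in both but much less in emetine. ZBED5 read 10.18, 9.85, 9.27 and 9.11 in emetine and 9.46, 7.39, 5.27 and 4.98 in control, and its slope was higher in emetine by 0.78 ± 0.09 (limma adjusted p = 6.79e-05). TRIB1, a pseudokinase that promotes protein turnover, changed by -1.89 in emetine and -4.66 in control, a slope difference of 0.49 ± 0.23 that did not pass (adjusted p = 0.186). LOC100190986 changed by -1.72 in emetine and -3.10 in control, but its difference of slope from control did not pass the test. It fell in all 5 conditions, and its slope was higher in emetine than in tunicamycin (limma adjusted p = 0.00119) and UPF1-depleted cells (adjusted p = 0.0462).

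For 12 of the 94, none of the other conditions reached a loss of 50% on the probe set used: ADAM33, BSDC1, LINC01296, PABPN1, PLA2G4C, PODNL1, RABGEF1P1, RPL32P3, SMAD7, SOCS4, UACA and ZBED6. The limit of log2 7 was set on emetine at 0 hr alone, so a gene that started low in another condition had little room to fall there. Being in this list is thus partly set by the choice of genes. ZBED6, for example, started at 6.15 in control. Some of the 12 lay close to another condition. RABGEF1P1 changed by -1.02 in emetine and -0.99 in tunicamycin. SOCS4 and UACA changed by -1.09 and -1.01 in emetine, and by -0.89 and -0.76 in hypoxia. In hypoxia PLA2G4C, SMAD7 and PABPN1 changed by 0.82, 0.79 and 0.45. RPL32P3 has a set brighter in emetine at 0 hr (7.85) that changed by -2.42 in emetine and -1.33 in control, so by that set it was reduced in control too. Another UACA set at log2 7 or more changed by 0.29 in emetine. SMAD7 read 9.49, 9.52, 8.90 and 8.41 in emetine and 8.04, 7.61, 8.25 and 8.32 in control (slope difference -0.36 ± 0.10; adjusted p = 0.0228). PLA2G4C, a phospholipase A2, started at 8.17 in emetine and 4.71 in control, and ended at 7.08 and 5.22. Its control start lay at the filter of log2 4.70, so a loss of 50% could hardly be read there. In both genes emetine started above control and the distance had shrunk by 4.5 hr. Over the 33 lost transcripts, 23 started above control and 13 of them by 2-fold or more, against 48.6% and 9.41% of all genes at log2 7 or more, and this comparison shares the 0 hr emetine array with the change.

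Probe sets of the least specific class were frequent. Those ending in _x_at, whose probes may also bind other transcripts, stood for 34.0% of the 94 reduced genes and 15.2% of the 33 lost, against 6.72% of all genes at log2 7 or more and 4.49% of those reduced in control. DBT, SLC35E1, ZNF721 and CDK13 are examples, with changes of -1.42, -1.77, -1.59 and -1.78 on such sets. The other SLC35E1 sets at log2 7 or more changed by -0.23 to 0.07, and that of ZNF721 by 0.28. Leaving out sets ending in _s_at and _x_at gave 49 lost genes, 22 of them among the 33.

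Loss in emetine was frequent among probe sets to which the annotation gives no gene symbol. Of 1414 such sets at log2 7 or more, 460 (32.5%) stood at 50% or less in emetine, and 486 (34.4%) in control. In hypoxia, tunicamycin and UPF1-depleted cells the shares were 31.2%, 35.3% and 32.3%. Of 14378 probe sets with a single symbol, 393 (2.73%) did so in emetine and 1813 (12.6%) in control. The unnamed sets were mostly the same in both: 391 were reduced in emetine and control, 85.0% of the emetine count and 80.5% of the control count. For named sets the shared 283 made up 72.0% of the emetine count and 15.6% of the control count.

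When every probe set was fitted on its own with a line, an analysis added after the data were seen, the share was again higher among unnamed sets while the counts were nearly equal. The fit called 172 of 14355 named sets lost in emetine (1.20%) and 169 of 1382 unnamed ones (12.2%). In control it called 21.9% and 25.5% falling. What RNA the unnamed sets read was not analysed here. A gene's count of losses depends on which of its sets is read: the median over each gene's probe sets gave 72 lost genes, 17 of them among the 33, and 163 reduced ones.

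The few risers were mostly histone mRNAs. Of 10 genes that rose in emetine, 6 were among the 25 measured replication-dependent histones, whose mRNAs end in a stem-loop in place of a poly(A) tail, and 0 histones fell. H1-2 read 9.87, 10.43, 10.85 and 11.08 (slope 0.27 ± 0.03; limma adjusted p = 0.00251), and H3C2 went from 5.39 to 6.94, H2AC14 from 7.84 to 8.75 and H1-4 from 4.95 to 5.94. H1-4 and H3C2 thus started near the filter of log2 4.70. When sets of shared probes were left out, H3C2 and H2AC14 had no set that could be tested, so signal of related histone genes may enter theirs. RPPH1, the RNA of RNase P and a product of RNA polymerase III, rose most steeply, through 7.88, 8.53, 9.22 and 9.49 (slope 0.37 ± 0.05; adjusted p = 0.00922), and changed by 1.85 in control. In control 9 of the 25 histones rose and 1 fell, beside 2063 and 2529 of all 14478 genes. The median change of the 25 at 4.5 hr was log2 0.35 in control and 0.18 in emetine. After centring on ribosomal protein genes 4 genes rose and 38 were lost in emetine.

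At the signal limit itself, the falling genes just inside were RPL32P3 at log2 7.10 and MIR4307HG at 7.26, with changes of -1.01 and -1.76. Just outside were CMKLR2 at 6.97 and SSBP3-AS1 at 6.93, with changes of -1.07 and -1.66. Further below it, NUMB, an inhibitor of Notch signalling, read 6.43 at 0 hr and fell, with a change of -2.84 at 4.5 hr (adjusted p = 0.000756).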

How the data were processed

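Total RNA was amplified, labelled with biotin and read on Affymetrix 3' arrays. The authors deposited 1 linear intensity per probe set and array, made with RMA (version not given) per the submitters' processing notes. RMA removes changes shared by most transcripts. Intensities were turned to log2. Of 54675 probe sets, 41097 had 1 symbol, 1801 several and 11777 none. Each gene was read by its probe set of highest mean, and 14478 genes above the 40th percentile (log2 4.70) were tested. limma 3.58.1 in R 4.3.3 fitted a line per condition (10 residual degrees of freedom), and for slope differences time as a factor, condition and a line per condition (8). P-values were adjusted by Benjamini-Hochberg over all genes at 0.05. They reflect scatter between single arrays, which may be technical, and condition cannot be told apart from culture or array batch. Members and lists were chosen with earlier results of these data known. Genes named follow a rule (the 20 lowest slopes among the lost, 5 highest rising, up to 3 lost per list, 2 on each side of the signal limit, 5 lowest and 5 highest slope differences from control, 5 largest measured falls); others were named after their values were seen. The fits were tested on simulated data. The number of arrays limits the precision.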

Additional observations from a re-analysis of the deposited data

Results flagged for a closer look

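For 11 of the 33 lost transcripts the slope in emetine differed from that in control by the test of the difference itself (limma, adjusted p under 0.05), in each case with the lower slope in emetine. In log2 per hr, emetine minus control, the difference was -0.44 for PSMD6-AS2, -0.32 for LINC00470, -0.31 for ZBED6, -0.24 for PABPN1 and -0.24 for RGL2, a regulator of Ral signalling. It was -0.20 for PCBP1-AS1, -0.19 for GTF2H3, -0.19 for ORAI2, a subunit of store-operated calcium channels, -0.18 for KLHL24, -0.17 for BSDC1 and -0.11 for LINC01138. RGL2 read 9.34, 8.77, 8.68 and 8.44 in emetine and 8.01, 8.01, 8.30 and 8.17 in control. The 33 were chosen on the emetine arrays that enter each difference.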

How the results depend on the processing

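The 33 lost genes became 72 with the median of a gene's probe sets, 5 with control and emetine arrays alone, 1 with the mean of 3 and 4.5 hr against that of 0 and 1.5 hr, and 350 probe sets when all were fitted (added after the data were seen); without 1 emetine array at a time they ranged from 2 to 24. The 10 rising genes became 6 after quantile normalization, 4 after centring on ribosomal protein genes, 18 with the median of probe sets, 0 with control and emetine arrays alone (889 at an unadjusted p under 0.05), and 0 to 7 without 1 emetine array. The 94 reduced genes became 163 with the median of probe sets and 213 at a loss of 33.3%; this count is the difference of the 0 hr and 4.5 hr emetine arrays and cannot be had without either. The 1858 slopes higher and 229 lower in emetine than in control ranged from 1039 to 1803 and from 78 to 232 without 1 emetine array; the lower ones became 518 after quantile normalization, 54 with control and emetine arrays alone and 142 without the time factor. Slopes turned positive for RUFY3 (0.004 with the median of probe sets, 0.015 without shared sets), LINC00470 (0.077 and 0.070) and GTF2H3 (0.10 without shared sets). The cause of these shifts was not tested, beyond fewer arrays where arrays were left out. The counts of lost genes that fell in each other condition stayed within 1.5 times under every alternative run. Of the 33, PSMD6-AS2 was called under 14 of 15 alternatives (signal limits and the all-probe-set fit aside), MAT2A under 12, and RUFY3 under 4.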
